A study of Mus musculus with 6 samples.

Results

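The G1 cyclins and the inhibitors of their kinases were followed in MTO54 organoids treated with Folfiri. The 10 genes are the D cyclins Ccnd1, Ccnd2 and Ccnd3, the E cyclins Ccne1 and Ccne2, the Cip/Kip inhibitors Cdkn1b and Cdkn1c, and the INK4 inhibitors Cdkn2a, Cdkn2b and Cdkn2c. They were picked by name and found through their Ensembl identifiers among the 24190 genes of the count table. All 10 passed the filter on low counts and were among the 14692 genes tested.

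MTO54 is a mouse tumor organoid (MTO) line of colorectal cancer with the AKP genotype, as the labels name it, so that all samples of both groups share this genotype and stand for 1 line. Single cells were seeded in basement membrane extract in complete stem cell medium, and 2 days later the medium was replaced for 2 days by the labels and methods (one figure legend gives a longer treatment, so the duration is uncertain). The 3 Folfiri samples received SN38 at 100 nM together with 5FU at 50 μg/μl (as the labels write it, and the unit is doubtful), and the 3 control samples received complete medium alone. 5FU inhibits thymidylate synthase and is built into nucleic acids, and SN38, into which irinotecan is converted in the body, traps topoisomerase I on DNA. Poly(A) RNA was sequenced in bulk, so that fewer cells of a kind and less RNA per cell cannot be told apart in any of the values.

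D cyclins are made in response to growth signals and activate Cdk4 and Cdk6, which start the phosphorylation of the retinoblastoma protein Rb1. E cyclins then activate Cdk2, and the release of E2F factors from Rb1 carries the cell from G1 into DNA replication. INK4 inhibitors bind Cdk4 and Cdk6 and block their union with D cyclins, whereas Cip/Kip inhibitors bind assembled complexes and are best known for holding cyclin E and Cdk2 inactive. In the intestine, Ccnd1 is active in proliferating crypt cells and is a known target of Wnt and growth factor signalling, and Cdkn1b accumulates as cells leave the cycle.

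The D cyclins share their contact to Rb1, the LXCXE motif close to the first residue. The first 60 coding bases of each are shown because this contact marks the family in which Ccnd1 took over most of the transcripts in the data below. They come from GENCODE vM21 transcripts on GRCm38, are given 5′ to 3′ on the coding strand, and have the codons of the motif in capitals.
Ccnd1, first coding base at 144939693 of chromosome 7, minus strand: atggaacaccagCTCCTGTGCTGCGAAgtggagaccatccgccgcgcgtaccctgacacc
Ccnd2, first coding base at 127150773 of chromosome 6, minus strand: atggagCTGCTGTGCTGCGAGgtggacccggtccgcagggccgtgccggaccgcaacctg
Ccnd3, first coding base at 47593655 of chromosome 17, plus strand: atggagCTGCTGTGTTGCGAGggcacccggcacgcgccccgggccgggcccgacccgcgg
The motif starts at codon 5 in Ccnd1 and at codon 3 in Ccnd2 and Ccnd3, and the encoded proteins have 295, 289 and 292 residues.

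Promoters are shown for Cdkn1b and Cdkn2c, the members that fell most after Folfiri, and for Cdkn2a, whose starts lie far apart. Cdkn2c has another window nearer its 5′ end, chr4:109666707-109667006, which held none of the motifs and is not shown. Each window of 300 bases runs to the 50th base after a RefSeq start on GRCm38.p6, written 5′ to 3′ on the strand of the gene, with matches to the motifs searched in capitals.
Cdkn1b, chr6:134920151-134920450, plus strand: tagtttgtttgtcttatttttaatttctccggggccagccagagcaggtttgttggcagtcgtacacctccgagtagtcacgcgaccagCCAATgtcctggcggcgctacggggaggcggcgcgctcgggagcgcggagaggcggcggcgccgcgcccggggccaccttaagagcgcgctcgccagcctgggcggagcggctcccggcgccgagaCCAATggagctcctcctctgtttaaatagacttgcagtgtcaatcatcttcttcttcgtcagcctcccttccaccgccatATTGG
Cdkn2c, chr4:109665323-109665622, minus strand: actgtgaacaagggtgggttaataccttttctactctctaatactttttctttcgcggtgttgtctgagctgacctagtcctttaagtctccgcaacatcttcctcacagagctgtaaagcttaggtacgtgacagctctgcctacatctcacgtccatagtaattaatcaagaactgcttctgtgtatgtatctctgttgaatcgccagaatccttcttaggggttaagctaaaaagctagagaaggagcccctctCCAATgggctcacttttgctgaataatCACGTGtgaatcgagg
Cdkn2a at the upstream start of p19Arf, chr4:89294570-89294869, minus strand: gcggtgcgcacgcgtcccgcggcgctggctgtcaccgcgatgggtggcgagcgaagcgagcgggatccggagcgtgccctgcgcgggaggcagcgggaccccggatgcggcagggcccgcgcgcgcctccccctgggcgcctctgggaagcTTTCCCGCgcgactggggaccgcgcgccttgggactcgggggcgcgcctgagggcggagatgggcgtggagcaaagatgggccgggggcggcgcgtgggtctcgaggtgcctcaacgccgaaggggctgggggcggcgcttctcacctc
Cdkn2a at the downstream start of p16Ink4a, chr4:89282143-89282442, minus strand: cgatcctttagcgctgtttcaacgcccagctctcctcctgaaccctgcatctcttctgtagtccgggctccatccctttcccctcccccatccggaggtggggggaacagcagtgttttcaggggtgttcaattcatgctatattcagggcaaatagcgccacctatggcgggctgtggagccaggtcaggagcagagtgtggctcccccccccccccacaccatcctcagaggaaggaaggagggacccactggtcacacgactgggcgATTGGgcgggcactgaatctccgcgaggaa
The motifs were searched on both strands in 9 windows of 6 members, those of Ccnd3, Ccne1, Cdkn1b, Cdkn2a, Cdkn2b and Cdkn2c. The other members Ccnd1, Ccnd2, Ccne2 and Cdkn1c had no window in the table. The letters searched were TTTGGCGC, TTTCGCGC, TTTCCCGC and TTTGGCGG for E2F, CACGTG for the E-box, TGACTCA for AP-1, TGACGTCA for CRE, CTTTGAT for TCF, GTAAACA for Foxo, CCAAT for the CCAAT box and TATAAA for the TATA box. Cdkn1b held CCAAT at -161 and -35 from its start and the same letters on the other strand at 46. CCAAT is common, with a match in 37.4% of 32851 mouse windows. The upstream Cdkn2a window held an E2F match, TTTCCCGC, at -99, a kind of match found in 2.37% of all windows. Cdkn2c held CACGTG at 35, which 7.15% of all windows hold, and CCAAT at 8. CCAAT also stood at -108 in the downstream Ccnd3 window and, on the other strand, at 21 in the downstream Cdkn2a window. Cdkn2b held TGACGTCA at -46, present in 1.79% of all windows. A Foxo match stood at -243 in the upstream Ccnd3 window, on the other strand, against 3.65% of all windows. No TCF, AP-1 or TATA box letters were found in the 9 windows. These matches are letters only, and binding was not measured.

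Total counts were between 22103591 and 30098210 per sample, and the 10 genes were each covered by 152 to 12616 reads per sample. Levels are CPM, counts relative to library size after scaling with TMM factors, which were 0.880 to 0.966 in controls and 1.10 to 1.11 after Folfiri. Changes are log2 fold changes of Folfiri over control from edgeR's quasi-likelihood test, with p adjusted by Benjamini-Hochberg across the 14692 genes tested. Control 1 stood apart from the other controls, with a chi-square per degree of freedom of 23.7 and 22.4 against them, compared with 3.84 between Control 2 and Control 3. Folfiri 3 stood apart from Folfiri 1 and 2 to a smaller extent, at 12.3 and 11.9 compared with 3.55 between those samples. Scaling by total counts alone raised the median change of all genes from 0.02 to 0.30 and the share of calls that were higher from 51.0% to 63.3%, so small changes depend on the scaling. The epithelial markers Epcam and Cdh1 were high in all 6 samples. Epcam had 1085 to 1338 CPM in controls and 638 to 666 CPM after Folfiri (log2 fold change -0.94). Cdh1 had 651 to 700 CPM in controls and 739 to 830 CPM after Folfiri (0.21). Chga, Col1a1, Ptprc and Pecam1, which mark enteroendocrine cells, fibroblasts, immune and endothelial cells, stayed at or below 1.13 CPM. Of the epithelial list, 2 rose, 6 fell and 1 did not pass, and its summed level was 6229 to 7274 CPM in controls and 5127 to 5377 CPM after Folfiri. Only 1 of this list rose without Control 2, Control 3, Folfiri 1 or Folfiri 2, or with the replicate number as a block. The summed fibroblast markers were 1.08 to 1.44 CPM in controls and 2.06 to 2.45 CPM after Folfiri, with Dcn (log2 fold change 4.44) and Pdgfra (1.54) higher and Col1a1 (-1.47) lower among the 3 that could be tested. The summed immune markers were 21.4 to 26.2 and 21.6 to 22.6 CPM, nearly all of it Cd68, and without Cd68 they were 0.640 to 0.720 and 1.52 to 1.65 CPM, with Ptprc higher (1.39). The summed endothelial markers, mostly Cdh5, were 79.5 to 133 and 68.9 to 79.2 CPM, and without Cdh5 they were 7.76 to 9.20 and 3.45 to 5.10 CPM, with Vwf lower (-1.13). The summed enteroendocrine markers, mostly Isl1, were 0.360 to 0.514 and 0.939 to 1.79 CPM. Isl1, the only enteroendocrine marker with enough reads to be tested, was higher after Folfiri (log2 fold change 1.65, SE 0.39, adjusted p = 0.00241 in edgeR's test). The part of such cells in the results was not tested. The intestinal marker Cdx1 was at or below 0.684 CPM, while Cdx2 had 153 to 165 CPM in controls and 53.7 to 55.2 CPM after Folfiri. The labels do not say how the replicate cultures were separated, so p values measure the spread between these samples only.

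Folfiri changed 7 of the 10 genes at an adjusted p under 0.05 in edgeR's test, 3 upward and 4 downward. Of all genes tested, 79.1% passed, 40.3% upward and 38.8% downward, so the number of members that passed is close to the background. The sizes of the changes differed widely within the group. Ccnd1 was the only member to rise by a log2 fold change of at least 1, against 19.5% of all genes, and Cdkn1b and Cdkn2c fell by more than that, against 16.8%. Control and Folfiri samples did not overlap for 8 of the 10 genes, compared with 81.4% of all genes. The median log2 fold change was -0.07 over the 10 genes and 0.02 over all genes.

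**Figure D1:**
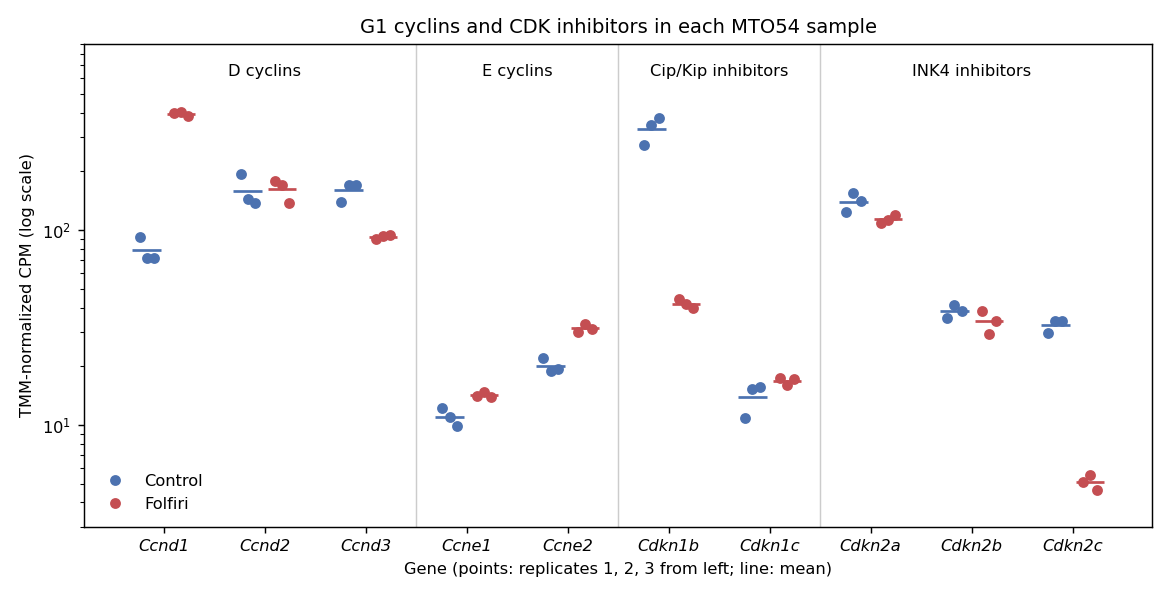
Level of each G1 cyclin and CDK inhibitor in each of the 6 samples, as TMM-normalized CPM on a log axis, with control samples in blue, Folfiri samples in red and the group mean as a line. Ccnd1 sits at 71.4 to 92.2 CPM in controls and 383 to 404 CPM after Folfiri, and Cdkn1b moves the other way, from 271 to 375 CPM down to 39.8 to 44.5 CPM.

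Ccnd1 (ENSMUSG00000070348, chromosome 7, 144929931 to 144939925, minus strand) encodes cyclin D1, the D cyclin most often raised in tumors. Its level was 92.2, 72.2 and 71.4 CPM in controls 1, 2 and 3 and 397, 404 and 383 CPM in Folfiri samples 1, 2 and 3. Every Folfiri sample was above every control, and the Folfiri samples lay close together, with a coefficient of variation of 2.68%. In edgeR's test this was a 5.01-fold rise (log2 fold change 2.32, SE 0.10, adjusted p = 1.91e-08), and 95.5% of all genes tested had a lower value. Across the fits that each left out 1 sample it lay between 2.25 and 2.46, the highest value being that without Control 1. A total of 1100 exon bases of Ccnd1, 23.4% of its exon length, lie opposite the neighbouring gene LTO1. LTO1 itself rose from 8.61 to 19.4 CPM (means of 3 samples), and its part in the Ccnd1 counts was not tested. The library kit does not mark strand, so that reads from the shared bases cannot be told apart.

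Ccnd2 (ENSMUSG00000000184, chromosome 6, 127125162 to 127152193, minus strand) had 193, 145 and 138 CPM in controls and 179, 170 and 138 CPM after Folfiri. The groups overlapped over nearly their whole range, with Control 1 the highest of all 6 samples. Ccnd2 did not pass edgeR's test (log2 fold change 0.03, SE 0.13, adjusted p = 0.834), and its change was 0.20 (adjusted p = 0.0682) without Control 1. Of its exon bases, 3.91% and 3.95% lie opposite a pair of antisense genes. Ccnd3 (ENSMUSG00000034165, chromosome 17, 47505051 to 47599691, plus strand), the D cyclin best known from lymphocytes, had 139, 171 and 169 CPM in controls and 89.7, 92.8 and 94.4 CPM after Folfiri. All Folfiri samples were below all controls. Ccnd3 fell 1.73-fold (log2 fold change -0.79, SE 0.09, adjusted p = 1.02e-05 in edgeR's test). Of its exon bases 361, or 4.11%, lie opposite Bysl, which rose from 15.3 to 55.6 CPM, and 508 of its 9428 windows of 50 bases (5.39%) also occur in transcripts of other genes on either strand, with 312 of them in Bysl and 143 in the pseudogene Ccnd3-ps on the same strand.

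Of the 3 D cyclins, Ccnd1 rose, Ccnd3 fell and Ccnd2 did not pass the test, and their shares of the family differed between the groups. As counts per kb of exon, Ccnd1 made up 35.0%, 30.5% and 30.9% of D cyclin transcripts in controls and 74.2%, 74.9% and 76.2% after Folfiri. Ccnd3 held 28.3%, 38.8% and 39.3% in controls and 9.01%, 9.24% and 10.1% after Folfiri. The share of Ccnd2 went from 32.4% ± 3.73 (SD, n = 3) to 15.4% ± 1.57 (SD, n = 3), although its own level did not pass the test. The balance in controls depended on the length used: the mean shares of Ccnd1, Ccnd2 and Ccnd3 were 32.1%, 32.4% and 35.5% per kb of exon, but 24.0%, 28.5% and 47.5% with the longest transcript as length and 19.7%, 39.8% and 40.5% of plain counts. After Folfiri, Ccnd1 had the largest share under each, with 75.1%, 68.0% and 60.8%. Shares do not depend on the scaling of libraries. For each share the groups did not overlap, and the exact two-sided permutation test gave p = 0.1, the smallest that 3 against 3 samples allow, also after adjustment over the 12 shares computed. The summed level of the D cyclins was 51.8 ± 3.67 CPM per kb in controls and 112 ± 4.22 CPM per kb with Folfiri (SD over 3 samples, exact permutation p = 0.1).

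**Figure D2:**
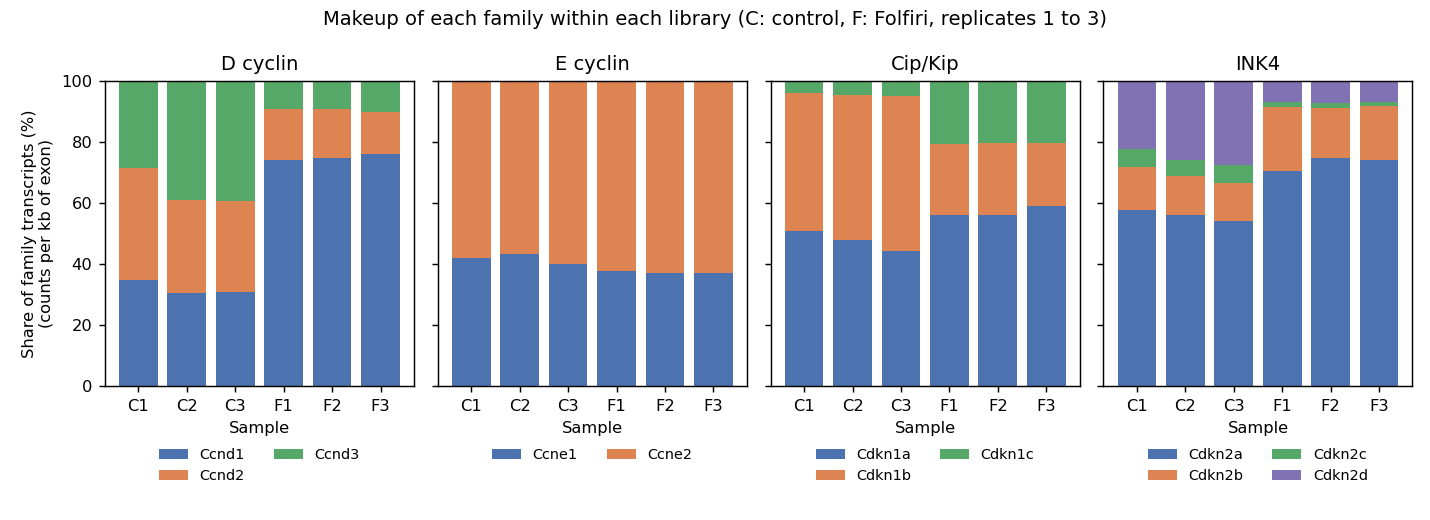
Makeup of 4 gene families in each library, as the percent of counts per kb of exon that each gene takes (C1 to C3, control; F1 to F3, Folfiri). Ccnd1 takes 30.5% to 35.0% of the D cyclin bar in controls and 74.2% to 76.2% after Folfiri, and Cdkn1c grows from 4.04% to 4.75% of the Cip/Kip bar to 20.2% to 20.5%.

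Both E cyclins rose, each by less than 1 on the log2 scale. Ccne1 (ENSMUSG00000002068, chromosome 7, 38097984 to 38107534, minus strand) had 12.2, 10.9 and 9.87 CPM in controls and 13.98, 14.8 and 13.9 CPM after Folfiri. Ccne2 (ENSMUSG00000028212, chromosome 4, 11191351 to 11204779, plus strand) had 22.1, 18.8 and 19.3 CPM in controls and 30.1, 32.8 and 30.9 CPM after Folfiri. For both genes, each Folfiri sample was above each control, with Control 1 the highest control. The log2 fold change was 0.37 (SE 0.11, adjusted p = 0.00876) for Ccne1 and 0.64 (SE 0.09, adjusted p = 7.09e-05) for Ccne2 in edgeR's test. Of the exon bases of Ccne2, 609 or 17.4% lie opposite Ints8, which rose from 30.3 to 67.2 CPM and so has more reads than Ccne2. The part of Ints8 reads in the Ccne2 values was not tested. Ccne1, whose exons overlap no other gene, took 41.8% ± 1.54 of E cyclin transcripts in controls and 37.4% ± 0.407 with Folfiri (SD over 3 samples, exact permutation p = 0.1).

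Cdkn1b (ENSMUSG00000003031, chromosome 6, 134920401 to 134925513, plus strand) encodes p27Kip1, which holds cyclin E and Cdk2 inactive in resting cells. Its level was 271, 347 and 375 CPM in controls and 44.5, 41.5 and 39.8 CPM after Folfiri. The lowest control was far above the highest Folfiri sample. Cdkn1b fell 7.90-fold (log2 fold change -2.98, SE 0.12, adjusted p = 1.002e-08 in edgeR's test), and only 1.44% of all genes tested had a lower value. Across the fits that each left out 1 sample it stayed between -3.11 and -2.89. No other gene of the annotation shares exon bases with Cdkn1b.

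Cdkn1c (ENSMUSG00000037664, chromosome 7, 143458339 to 143461050, minus strand) encodes p57Kip2 and is an imprinted gene expressed from the maternal allele. It had 10.9, 15.2 and 15.6 CPM in controls and 17.4, 16.1 and 17.2 CPM after Folfiri. The Folfiri samples were all higher, but the nearest control and Folfiri values were close, and Control 1 was lower than the rest. The log2 fold change was 0.29 (SE 0.13, adjusted p = 0.0723 in edgeR's test), so the gene did not pass. It was 0.13 without Control 1 and passed with scaling by total counts (0.57, adjusted p = 0.00213), with upper quartile scaling (0.34, adjusted p = 0.0345) and without Control 3 (0.36, adjusted p = 0.0386). An antisense gene, Gm44732, lies opposite 30.7% of its exon bases. Cdkn1a, the third Cip/Kip gene and the inhibitor p21, fell from 256 to 82.7 CPM (log2 fold change -1.63, SE 0.08, adjusted p = 3.91e-08). Within the family, Cdkn1b went from 47.8% ± 2.99 to 22.6% ± 1.49 of transcripts per kb and Cdkn1c from 4.47% ± 0.379 to 20.3% ± 0.154 (SD over 3 samples, exact permutation p = 0.1 for both). The share of Cdkn1c depended on the length used, and its mean went from 3.58% to 15.4% with the longest transcript as length and from 2.30% to 11.9% of plain counts. The summed level of the family was 152 ± 17.0 CPM per kb in controls and 40.8 ± 1.65 CPM per kb after Folfiri (exact permutation p = 0.1).

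Cdkn2a (ENSMUSG00000044303, chromosome 4, 89274471 to 89294653, minus strand) encodes p16Ink4a, which inhibits Cdk4 and Cdk6, and, from the upstream first exon, p19Arf, which restrains Mdm2. Gene counts do not separate these products. Its level was 123, 155 and 141 CPM in controls and 109, 112 and 119 CPM after Folfiri. All Folfiri samples were below all controls by a small margin. The log2 fold change was -0.30 (SE 0.09, adjusted p = 0.00882 in edgeR's test), and with scaling by total counts it was -0.02 (adjusted p = 0.777), so the call depends on the scaling. Cdkn2b (ENSMUSG00000073802, chromosome 4, 89306299 to 89311039, minus strand), the neighbour that encodes p15Ink4b, had 35.3, 41.3 and 38.4 CPM in controls and 38.6, 29.3 and 34.0 CPM after Folfiri. Its groups overlapped, with Folfiri 1 above the lowest 2 controls. It did not pass edgeR's test (log2 fold change -0.17, SE 0.11, adjusted p = 0.164), but it passed at -0.23 (adjusted p = 0.0492) without Control 1 and at -0.27 (adjusted p = 0.0492) without Folfiri 1, whereas without Folfiri 2 it was at -0.07 (adjusted p = 0.578), and scaling by total counts turned it to 0.11.

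Cdkn2c (ENSMUSG00000028551, chromosome 4, 109660876 to 109667189, minus strand) encodes p18Ink4c. It had 29.6, 34.2 and 34.1 CPM in controls and 5.10, 5.55 and 4.64 CPM after Folfiri. Both groups were tight and far apart. Cdkn2c fell 6.40-fold (log2 fold change -2.68, SE 0.11, adjusted p = 1.16e-08 in edgeR's test), and 2.10% of all genes tested had a lower value. Cdkn2d, the fourth INK4 gene, fell as well, from 85.2 to 14.6 CPM (log2 fold change -2.54, SE 0.15, adjusted p = 1.14e-07). Cdkn3, a phosphatase that removes the activating phosphate of Cdks, had a log2 fold change of -0.67 and lost its call with scaling by total counts (-0.40). Of the INK4 genes at the shared locus on chromosome 4, Cdkn2a was thus lower by 0.30 on the log2 scale and Cdkn2b did not pass, whereas Cdkn2c and Cdkn2d fell by 2.68 and 2.54. Cdkn2a made up 56.1% ± 1.78 of INK4 transcripts per kb in controls and 73.1% ± 2.31 after Folfiri, and Cdkn2c 5.73% ± 0.324 and 1.44% ± 0.178 (SD over 3 samples, exact permutation p = 0.1 for both). Of plain counts, the mean share of Cdkn2c was higher in both groups, at 11.1% in controls and 3.06% after Folfiri. The summed level of the family was 213 ± 27.8 CPM per kb in controls and 132 ± 4.65 CPM per kb after Folfiri (exact permutation p = 0.1).

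**Figure D3:**
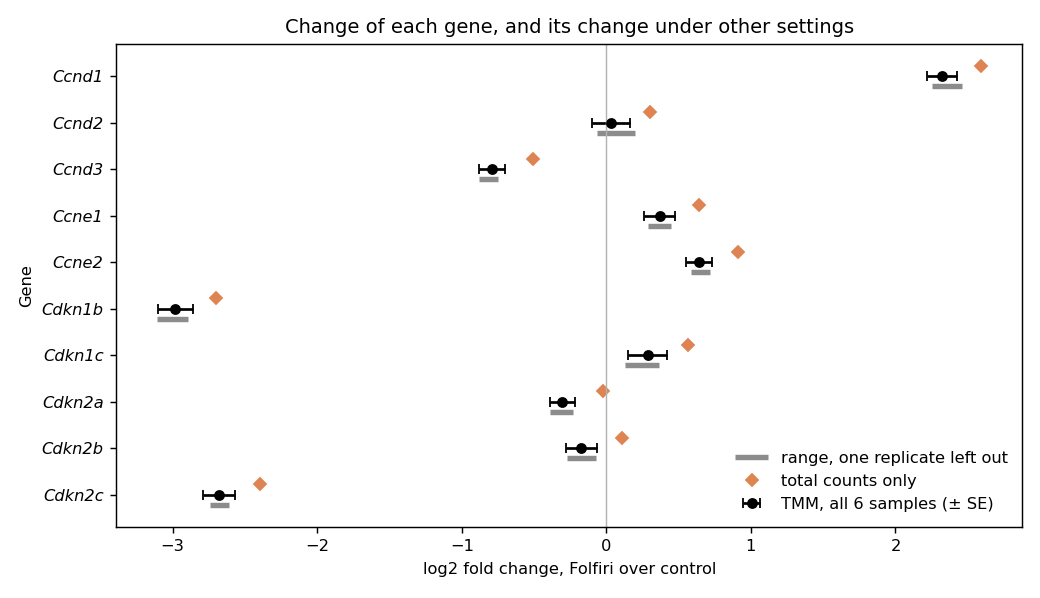
log2 fold change of each gene, Folfiri over control, with an SE derived from edgeR's fit (black), the range over fits that each leave out 1 sample (grey) and the value with scaling by total counts (orange). Ccnd1 at 2.32, Cdkn1b at -2.98 and Cdkn2c at -2.68 lie far from 0 under each, whereas Cdkn2b lies at -0.17 and at 0.11 with total counts.

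Levels of different genes were compared as CPM per kb of exon. In controls the order was Cdkn2a (119), Cdkn1b (72.8), Cdkn2b (27.5), Ccnd3 (18.2), Ccnd2 (16.9), Ccnd1 (16.7), Cdkn2c (12.2), Cdkn1c (6.82), Ccne2 (5.74) and Ccne1 (4.13), each a mean of 3 samples. The 3 D cyclins overlapped in this order, as did Cdkn1c and Ccne2, and the other neighbours did not. After Folfiri the order was Cdkn2a (96.6), Ccnd1 (83.7), Cdkn2b (24.4), Ccnd2 (17.3), Ccnd3 (10.5), Cdkn1b (9.21), Ccne2 (8.95), Cdkn1c (8.28), Ccne1 (5.35) and Cdkn2c (1.90), with an overlap only between Cdkn1b and Ccne2. Ccnd1 thus moved from the sixth place to the second, Cdkn1b from the second to the sixth, and Cdkn2c to the last, as the plot of levels per length shows. The ratio of Ccnd1 to Cdkn1b per kb, chosen after the values were seen and not tested, was 0.328, 0.201 and 0.184 in controls and 8.62, 9.39 and 9.29 after Folfiri. With the length of the longest transcript in place of all exons, Ccnd3 had 41.4 CPM per kb in controls and stood above Cdkn2b. After Folfiri, by that length, Ccnd2 (25.7) stood above Cdkn2b (24.4) and Ccne2 (10.4) above Cdkn1b (9.21), which was then in the seventh place.

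**Figure D4:**
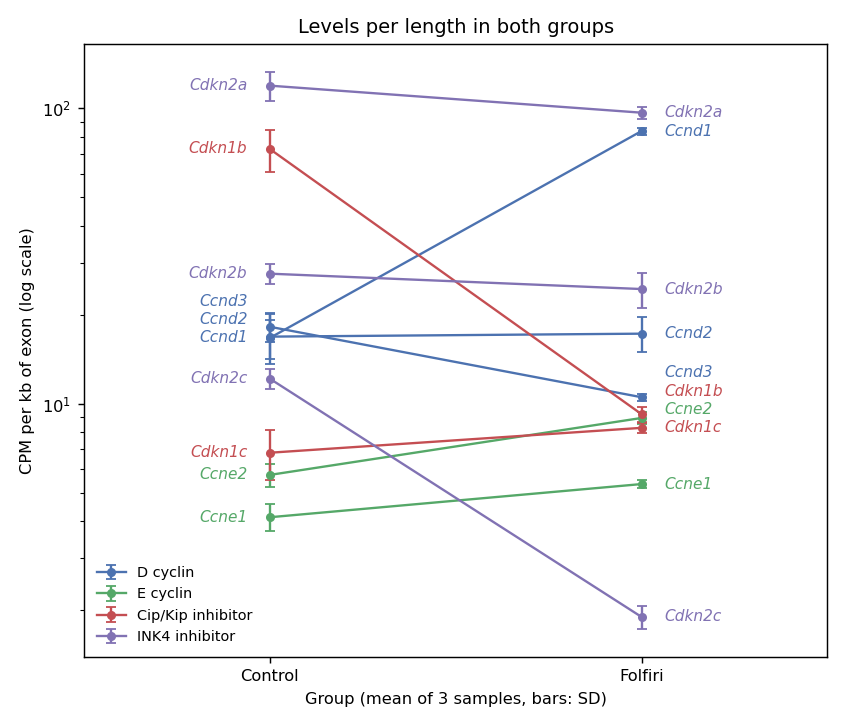
Mean level of each gene per length in both groups, in CPM per kb of exon on a log axis, with SD bars over 3 samples and lines that join the same gene. The line of Ccnd1 climbs from 16.7 to 83.7 and crosses that of Cdkn1b, which descends from 72.8 to 9.21.

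The kinases that G1 cyclins activate include Cdk4 and Cdk6, the partners of D cyclins, and Cdk2, the partner of E cyclins. Of 9 genes of the G1 kinases and their activators, 6 rose and 2 fell, with a median of 0.66. Cdk6 had 73.7, 50.4 and 50.0 CPM in controls and 154, 154 and 117 CPM after Folfiri (log2 fold change 1.29, SE 0.16, adjusted p = 2.13e-05 in edgeR's test). Cdk4 rose by 0.35, whereas Cdk2 had a change of 0.15 that did not pass (adjusted p = 0.198). With scaling by total counts Cdk2 passed at 0.43 (adjusted p = 0.00104), and 7 of the 9 genes were higher, whereas without Control 1 it was at 0.036 (adjusted p = 0.600). Of the kinase that activates these Cdks, Cdk7 (1.22) and its cyclin Ccnh (0.78) rose, and the assembly factor Mnat1 fell (-0.63). The Cdk-binding proteins Cables2 (0.99) and Cables1 (-1.14) went opposite ways.

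All 3 genes of the RB family fell, although Rbl1 was at 0.0032 with scaling by total counts and lost its call without Folfiri 1 (-0.24, adjusted p = 0.0594). Rb1 is the main substrate of cyclin D kinases. Rb1 had 23.6, 25.0 and 25.0 CPM in controls and 6.44, 6.75 and 5.13 CPM after Folfiri (log2 fold change -2.01, SE 0.12, adjusted p = 1.12e-07 in edgeR's test). Rbl2 changed by -0.61 and Rbl1 by -0.27. Of the 10 E2F and DP factors, which RB proteins bind, 7 rose and 2 fell, with a median of 0.54. The activators E2f1 (0.85) and E2f3 (0.85), the RB-bound E2f4 (0.85) and the repressor E2f7 (1.11) rose, and E2f5 (-1.02) and E2f8 (-0.53) fell. With scaling by total counts E2f8 was at -0.26 and lost its call (adjusted p = 0.0685), so that 7 of the 10 rose and 1 fell. Of 7 genes of the MuvB complex with B-Myb and FoxM1, which drive genes of later phases, 4 rose and 2 fell, whereas with scaling by total counts 5 rose and none fell, and Lin54 turned to 0.0067. Foxm1 (1.17), Mybl2 (0.74) and Lin9 (0.70) were among those that rose. Lin37 fell (-0.34), but in edgeR's test it lost its call without Control 2 (adjusted p = 0.0728) and without Folfiri 1 (adjusted p = 0.0848).

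Among 16 E2F target genes of S phase entry, 9 rose, 4 fell and 3 did not pass, with a median of 0.47, and with scaling by total counts 11 rose and 2 fell, with Tk1 at 0.02. Among the origin licensing genes, Mcm2 (1.31), Mcm3 (1.17), Cdc6 (1.0) and Cdt1 (0.87) rose, whereas Mcm7 fell (-0.48). Mcm7 lost its call with scaling by total counts (-0.21, adjusted p = 0.0695 in edgeR's test). Rrm1 (-0.998), a subunit of ribonucleotide reductase, and Gins2 (-0.84), of the replicative helicase, also fell. The list of S, G2 and M phase cyclins with Cdk1 holds 5 genes, and all 5 fell under each scaling. Ccnb2, a partner of Cdk1 in mitosis, had 203, 245 and 245 CPM in controls and 42.0, 40.7 and 45.7 CPM after Folfiri (log2 fold change -2.43, SE 0.09, adjusted p = 7.77e-09 in edgeR's test). Ccna2 fell by 1.14, Cdk1 by 0.59 and Ccnf by 0.49 on the log2 scale.

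**Figure D5:**
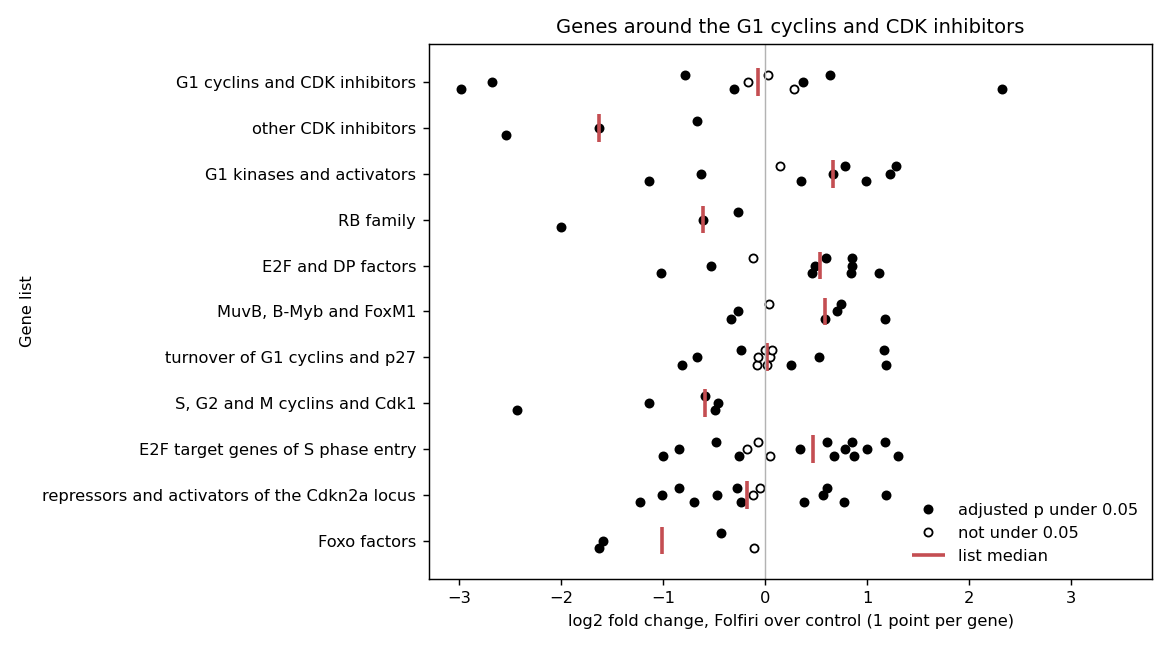
log2 fold change, Folfiri over control, of every tested gene in 11 lists, with 1 point per gene, filled where the adjusted p is under 0.05, and the list median as a red line. All 5 S, G2 and M genes lie left of 0, as do the 3 RB family genes, of which Rbl1 is at 0.0032 with total counts, and the E2F and DP factors have a median of 0.54.

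Cdkn1b and the cyclins are also controlled by protein turnover, which RNA levels do not show. Of 13 genes for this turnover, 4 rose, 3 fell and 6 did not pass, with a median of 0.02. Skp2, which marks p27 for destruction, rose by 1.19 (SE 0.08, adjusted p = 3.99e-07 in edgeR's test), and its partner Cdc34 rose by 1.16. Fbxo4, a proposed cyclin D1 ligase component, and Cul3, a scaffold tied to cyclin E turnover, changed by -0.81 and -0.67. With scaling by total counts, 9 of the 13 genes rose and 2 fell, and Cul1 turned to 0.04.

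Of the 4 Foxo factors, which are known activators of Cdkn1b, 3 fell, and Foxo1 lost its call with scaling by total counts (-0.16). Foxo3 had 160 to 163 CPM in controls and 47.8 to 54.3 CPM after Folfiri (log2 fold change -1.63, SE 0.07, adjusted p = 2.16e-08 in edgeR's test), and Foxo4 (-1.59) and Foxo1 (-0.43) fell as well. Of 14 known repressors and activators of the Cdkn2a locus, 5 rose and 7 fell, with a median of -0.18. Suz12 (-1.23), a Polycomb repressor, the repressors Tbx2 (-1.01) and Tbx3 (-0.85) and the activator Kdm6b (-0.70) fell. The Polycomb proteins Cbx2 (1.18), Eed (0.61) and Bmi1 (0.57) rose, as did Zbtb17 (0.77), the partner of Myc at Cdkn2b. With scaling by total counts, 6 rose and 5 fell.

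Of 9 genes beside Cdkn1c and Cdkn2a, 4 rose and 5 fell. In the imprinted domain of Cdkn1c, Kcnq1 fell by 2.73 (SE 0.11, adjusted p = 1.27e-08 in edgeR's test), with 84.5, 92.1 and 89.9 CPM in controls and 16.0, 11.8 and 12.3 CPM after Folfiri. The noncoding Kcnq1ot1 (-1.39), which lies within Kcnq1 on the other strand, and Slc22a18 (-1.50) fell, and Phlda2 (0.75), Tssc4 (0.77) and Cd81 (0.24) rose, of which Cd81 lost its call without Folfiri 2 (0.21, adjusted p = 0.0539). Next to Cdkn2a, Mtap rose by 0.28.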

How the data were processed

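The authors aligned the reads with STAR (version 2.5.2 in the submitters' processing notes) to the mouse genome with GENCODE vM25, sorted the alignments with Sambamba and used Rsubread to obtain the raw counts per gene that they deposited. The strand setting and the handling of reads with several positions are not given in the sources used here, and the library kit named in the labels does not mark strand, so that reads from a stretch shared with a gene on the other strand cannot be told apart.

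These deposited counts were analysed for all genes in R 4.3.3 with edgeR 4.0.16, using its default expression filter, TMM factors and the quasi-likelihood test between 3 control and 3 Folfiri samples, calling adjusted p under 0.05 (Benjamini-Hochberg). The SE of each change was derived from the fitted coefficient and the F statistic of this test. The study used DESeq2, which was run here as an alternative (version 1.42.0). Symbols, positions and exon lengths came from GENCODE vM21 on GRCm38, which named 24168 of 24190 genes. Shares and summed levels were tested by exact two-sided permutation (scipy 1.17.1), with 12 shares and 4 sums. The 10 genes and all lists were chosen with earlier results of these data known. Named are all members, a few fixed G1 genes, and up to 4 genes per direction and list by size of change, if past the threshold, expressed at 1 CPM or more on average and without overlap between the groups. Markers, overlapping genes and the ratio of Ccnd1 to Cdkn1b were added, the ratio, Cdx1 and Cdx2 after their values were seen. Alternatives were a Wald test in DESeq2, other scalings and filters, a block on the replicate number, and leaving out each sample in turn. On simulated data with 14454 genes in the fit, 200 of 200 changed genes were recovered, with 14 false calls. Of the genes tested in the 6 samples, 79.1% passed, and recovery with so large a share of changed genes was not tested.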

Additional observations from a re-analysis of the deposited data

How the results depend on the processing

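Across 13 alternatives, the calls of Ccnd1, Ccnd3, Ccne1, Ccne2, Cdkn1b and Cdkn2c did not change, and of 130 values for the 10 members 120 kept direction and side of the threshold. The number of genes changed lay between 11021 and 12312 with a sample left out and between 10383 and 12742 otherwise. The members' median of -0.07 moved to 0.20 with scaling by total counts and lay between -0.16, without Folfiri 1, and -0.0155 with a sample left out. The change of Ccnd2 lay between -0.0668 and 0.20 with a sample left out. With scaling by total counts, Cdkn2b turned to 0.11, Rbl1 to 0.0032, Lin54 to 0.0067, Cul1 to 0.0375 and Tk1 to 0.0166, by the shift of all genes that this scaling brings. The Ccnd1 share of D cyclin transcripts differed by 43.0 percentage points between groups, by 44.1 with the longest transcript as length and by 41.1 with plain counts. Same-numbered samples correlated at 0.03, -0.12 and 0.04 in their deviations from the group means, and differently numbered samples at -0.12 to 0.12. With so few samples, these values cannot decide whether the replicate numbers pair the samples. With the replicate number as a block, 11499 genes passed, the members' median was -0.07, and 3 members were higher and 4 lower as before. With 3 samples per group, permutation tests cannot go below 0.1, and Cdkn2c after Folfiri rests on the fewest reads among the members, at least 152 per sample.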
